A study of Mus musculus with 8 samples.

Results

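The 10 genes described here encode the lipases that break down stored triglyceride in adipocytes, a co-activator and an inhibitor of the first of these lipases, and the 5 perilipins that coat lipid droplets. They were taken as a named list, *Pnpla2*, *Lipe*, *Mgll*, *Abhd5*, *G0s2*, *Plin1*, *Plin2*, *Plin3*, *Plin4* and *Plin5*, and were found by gene symbol among the 44674 genes of the count and TPM (transcripts-per-million) tables. All 10 were among the 14489 genes with enough counts to be tested.

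mRNA of brown adipose tissue (BAT) was sequenced from 8 male mice fed a high-fat diet (HFD) from week 4 to week 18 and taken at the end of a hyperinsulinemic-euglycemic clamp. The Ox1RΔSERT group, 4 mice, was homozygous for a floxed allele of the orexin receptor 1 gene (Ox1R fl/fl) and carried 1 copy of a Cre transgene under control of the serotonin transporter gene (Sert-Cre tg/wt), so that the receptor was deleted in serotonergic neurons. The control group, 4 mice, was made up of Cre-negative littermates that carried the same floxed alleles. The comparison asked how BAT differed after loss of the receptor in those neurons, and not in BAT itself. In the study, this Cre line also switched on a reporter in the cingulate cortex and thalamus, in cells where Ox1R was not detected. The libraries held 35852708 to 50063339 estimated counts, of which mitochondrially encoded genes took 33.6% to 46.8%. The targeted gene, *Hcrtr1*, had 0, 5, 3 and 2 counts in controls 10684, 11253, 11563 and 11560, against 4, 0, 5 and 3 counts in Ox1RΔSERT mice 11708, 11243, 11613 and 11601. These few counts, from a tissue in which the gene was not deleted, do not check the genotypes.

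Triglyceride in lipid droplets is hydrolysed in steps, by adipose triglyceride lipase to diglyceride, by hormone-sensitive lipase to monoglyceride, and by monoglyceride lipase to glycerol and the last fatty acid. In resting adipocytes perilipin 1 covers the droplet and holds the co-activator ABHD5 away from adipose triglyceride lipase, and phosphorylation by protein kinase A upon adrenergic stimulation releases it. Perilipin 2 coats droplets in most cell types, while perilipin 5 is found in oxidative tissues such as BAT, heart and muscle, where it links droplets to mitochondria.

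Of the 10 genes, 0 differed between Ox1RΔSERT and control mice by edgeR's quasi-likelihood test with an adjusted p under 0.05, against 0% of the 14489 genes tested. At an unadjusted p under 0.05 the test gave 2201 genes, 15.2%, among them 0 of the 10. Under that same limit, *Lipe* and *Plin2* passed in limma-trend fits to log2(TPM + 1) and log2(TPM + 0.1), beside 3038 and 3200 of all genes tested, and *Abhd5* passed with voom quality weights, beside 2916, and without control mouse 10684, beside 2326. DESeq2, which called 265 of 15119 genes (1.75%), also called 0 of the 10. The values of the groups overlapped for each of the 10 genes, both as normalised values (counts-per-million after scaling by the trimmed mean of M values, TMM) and as TPM. Over all genes tested, the groups did not overlap for 797 genes (5.5%) on the normalised scale, with 390 (2.69%) higher and 407 (2.81%) lower in Ox1RΔSERT mice, and for 834 genes (5.76%) on the TPM scale, where 810 (5.59%) were higher and 24 (0.166%) lower. The median log2 fold change of the 10 genes was -0.11, beside 0.0021 for all genes tested. Fewer cells of a type and less RNA per cell cannot be told apart in such bulk tissue.

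The sign of these small differences depended on the scaling. With TMM factors the log2 fold change was below 0 for 7 of the 10 genes and above 0 for 3. It was below 0 for 3 genes, *Mgll*, *Abhd5* and *Plin5*, when libraries were scaled by their total alone, and for 0 genes in limma-trend fits to TPM. Those settings moved the median of all genes tested to 0.22 (library size), 0.23 (log2(TPM + 1)) and 0.32 (log2(TPM + 0.1)). Relative to that median, 7, 6 and 7 of the 10 genes were lower in Ox1RΔSERT mice under the respective settings.

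Several libraries stood apart from the rest. On the first principal component of all genes tested, which held 53.6% of the variance, Ox1RΔSERT mice 11708 and 11601 had scores of 77.0 and 59.3, against -44.3 to 7.13 for the remaining 6 mice. The same 2 mice were high in macrophage genes, of which 10 of 10 were detected in all mice and *Lyz2* was the most abundant. The summed TPM of these genes was 609 in mouse 11708 and 857 in mouse 11601, compared with 121 and 168 in Ox1RΔSERT mice 11243 and 11613 and 129, 164, 107 and 82.8 in controls 10684, 11253, 11563 and 11560. Markers of lipid-laden macrophages (7 of 7 detected, *Cd9* most abundant) summed to 148 and 152 TPM in mice 11708 and 11601 and to 7.82 to 25.7 TPM in the others. Fibroblast genes (6 of 6 detected, *Col3a1* most abundant) summed to 652 and 1497 TPM in mice 11708 and 11601 and to 91.0 to 240 TPM in the others. Many results are therefore also given without these 2 mice, and the part of these cell types in them was not tested.

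Other tissues were also seen in single libraries. Skeletal muscle genes (7 of 9 detected in all mice, *Acta1* most abundant) summed to 523 TPM in control mouse 11253, 1027 TPM in Ox1RΔSERT mouse 11708 and 106 TPM in mouse 11601, and to 1.24 to 16.7 TPM in the remaining 5 mice. Hepatocyte genes (5 of 5, *Alb* most abundant) summed to 543 TPM in mouse 11708 and to 2.18 to 41.2 TPM elsewhere. The tissue itself matched its label in every mouse. Brown adipocyte genes (10 of 10, *Ucp1* most abundant) summed to 3985 to 5406 TPM and adipocyte genes (7 of 7, *Fabp4* most abundant) to 7713 to 10656 TPM. Endothelial genes (5 of 5, *Pecam1*) lay between 49.1 and 83.9 TPM and erythroid genes (5 of 5, *Hbb-bs*) between 724 and 2231 TPM.

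All 10 genes were abundant in BAT. Per transcript length, the mean TPM over 8 mice placed *Pnpla2* (891 ± 119, SD, n = 8) above 99.6% of the genes tested and *Plin3* (39.9 ± 9.83, SD, n = 8), the least abundant, above 91.3%. *Pnpla2* exceeded every other gene of the group in TPM in 8 of 8 mice, with no overlap between its range and that of the next gene. It was followed by *Plin2* (466 ± 121) and *G0s2* (405 ± 103), whose TPM ranges overlapped and whose order held in 6 of 8 mice. *Lipe* (271 ± 72.7) lay below *G0s2* and above *Plin1* (204 ± 41.6), each in 7 of 8 mice and with overlapping ranges. *Mgll* (133, range 118 to 155) was below *Plin1* in all 8 mice without overlap and above *Plin5* (82.8 ± 25.4) in 8 of 8 mice. *Plin5*, *Plin4* (78.9 ± 21.4) and *Abhd5* (69.2 ± 13.5) could not be ordered, since each exceeded the next in only 4 of 8 mice. Between 2759 and 90468 estimated counts stood behind each value, so that counting error was small beside the spread between mice.

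**Figure D1:**
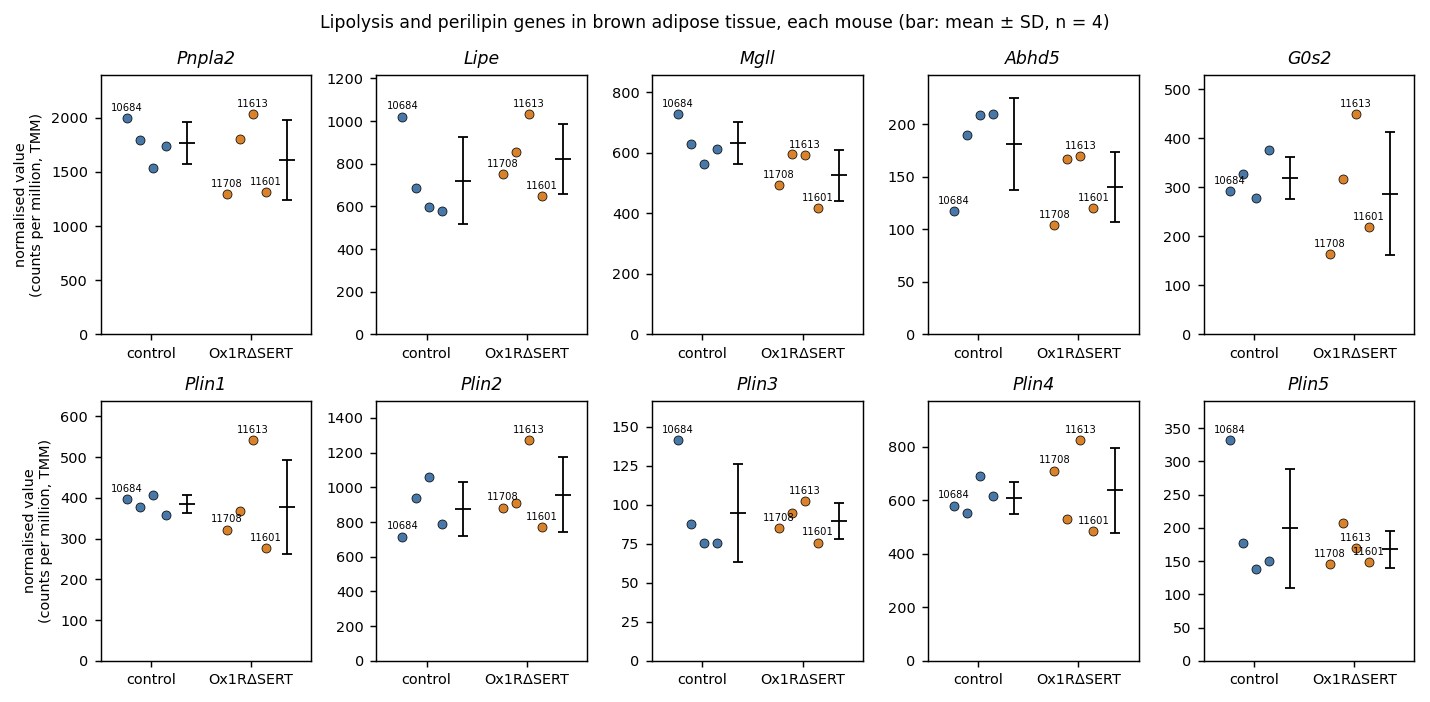
Normalised values (counts-per-million after TMM scaling, axis from 0) of the 10 genes in each of 4 control (blue) and 4 Ox1RΔSERT (orange) mice, with the mean and SD of each group beside them and 4 mice labelled by number. The groups overlap in every panel; control mouse 10684 is highest for Mgll, Plin3 and Plin5, and Ox1RΔSERT mouse 11613 for Pnpla2, Lipe, G0s2, Plin1, Plin2 and Plin4.

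*Pnpla2*, which encodes adipose triglyceride lipase, lies on chr7:141455198-141460743 (GRCm38, plus strand). Its normalised value was 1997, 1794, 1534 and 1742 in controls 10684, 11253, 11563 and 11560, against 1294, 1798, 2031 and 1312 in Ox1RΔSERT mice 11708, 11243, 11613 and 11601. The Ox1RΔSERT group thus held both the highest mouse, 11613, and the 2 lowest, 11708 and 11601, around the control values. Its log2 fold change was -0.13 ± 0.18 (SE; 95% interval -0.54 to 0.27; edgeR adjusted p = 0.724), with 2 of 4 Ox1RΔSERT mice below the control mean. Without mice 11708 and 11601 it was 0.12 (edgeR adjusted p = 0.996), and with single mice left out it ran from -0.27 (without 11613) to -0.044 (without 11708).

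*Lipe* (chr7:25379527-25398710, minus strand) encodes hormone-sensitive lipase. Its normalised value was 1022, 686, 599 and 580 in controls 10684, 11253, 11563 and 11560, against 753, 854, 1033 and 648 in Ox1RΔSERT mice 11708, 11243, 11613 and 11601. Control mouse 10684 lay among the highest values, at 1.64 times the mean of the other 3 control mice, while those 3 were among the 4 lowest of all 8. The fold change on the log2 scale was 0.19 ± 0.22 (SE; 95% interval -0.30 to 0.68; edgeR adjusted p = 0.682). Leaving out mouse 10684 raised it to 0.40 (edgeR adjusted p = 0.320), and leaving out mice 11708 and 11601 to 0.39 (edgeR adjusted p = 0.996). It fell to 0.056, 0.094 and 0.099 when *Lipe* was fitted without mouse 11613, 11560 or 11563. The log2 fold change of *Lipe* was above 0 in each setting run. In TPM, the group means of *Lipe* were 227 in control and 316 in Ox1RΔSERT mice (exact permutation p = 0.0857, two-sided). On that scale the Ox1RΔSERT mice, at 263 to 378, lay above controls 11253, 11563 and 11560, at 184 to 200, and on both sides of control mouse 10684, at 327. All genes tested had a median of 0.23 in the limma-trend fit to log2(TPM + 1), and relative to it *Lipe* was at 0.28.

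*Mgll* (chr6:88724412-88828360, plus strand), the gene of monoglyceride lipase, had normalised values of 727, 629, 562 and 614 in controls and 493, 597, 592 and 418 in Ox1RΔSERT mice, listed in the same order. All 4 Ox1RΔSERT mice lay below the control mean, but mice 11243 and 11613 were above the lowest control mouse. Among the 10 genes *Mgll* had the lowest unadjusted p (0.0944), with a log2 fold change of -0.27 ± 0.14 (SE; 95% interval -0.60 to 0.057; edgeR adjusted p = 0.383). The difference shrank to -0.086 without mice 11708 and 11601 (edgeR adjusted p = 0.996). In TPM, the mean of *Mgll* did not separate the groups either, with an exact permutation p of 0.800 (two-sided, 70 assignments of 4 mice to 4, for which the smallest possible p is 0.0286).

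*Abhd5* (chr9:122351608-122381524, plus strand) encodes the co-activator of adipose triglyceride lipase, also known as CGI-58. Its normalised value was 117 in control mouse 10684, against 190, 208 and 209 in its group mates 11253, 11563 and 11560. In the Ox1RΔSERT mice it was 104 and 120 in mice 11708 and 11601, and 167 and 170 in mice 11243 and 11613. Apart from mouse 10684, at 0.577 times the mean of the other controls, every control mouse exceeded every Ox1RΔSERT mouse on this scale. In TPM this did not hold: *Abhd5* was 90.1 in Ox1RΔSERT mouse 11613 and at most 81.3 in controls, with group means of 69.3 in control and 69.1 in Ox1RΔSERT mice (exact permutation p = 1.00). With a log2 fold change of -0.37 ± 0.22 (SE; 95% interval -0.88 to 0.14; edgeR adjusted p = 0.434), 4 of 4 Ox1RΔSERT mice were below the control mean. It was -0.53 without mouse 10684 (edgeR adjusted p = 0.306) and -0.10 without mice 11708 and 11601 (edgeR adjusted p = 0.996).

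*G0s2* (chr1:193272161-193273217, minus strand) encodes an inhibitor of adipose triglyceride lipase. Its normalised value was 293, 327, 279 and 376 in controls 10684, 11253, 11563 and 11560, against 164, 317, 449 and 219 in Ox1RΔSERT mice 11708, 11243, 11613 and 11601. The Ox1RΔSERT mice spread around the controls on both sides, with an SD of 125 against 43.3 (n = 4 each). Its log2 fold change was -0.15 ± 0.28 (SE; 95% interval -0.79 to 0.49; edgeR adjusted p = 0.817). It was 0.27 without mice 11708 and 11601 (edgeR adjusted p = 0.996) and -0.45 without mouse 11613 (edgeR adjusted p = 0.310).

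**Figure D2:**
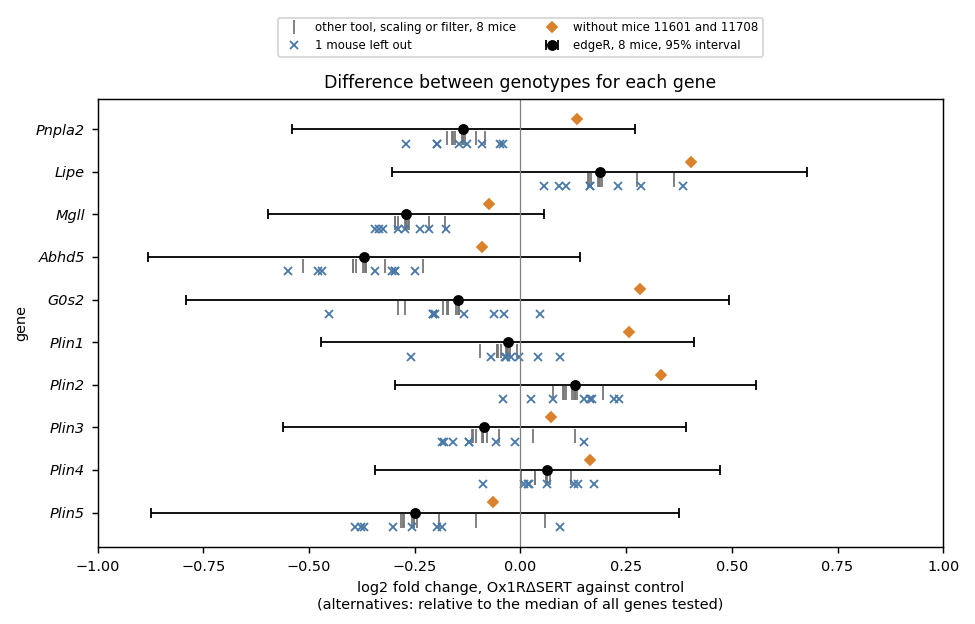
Log2 fold change of each gene, Ox1RΔSERT against control, from edgeR with its 95% interval (black, 8 mice), and under alternative tools, scalings and filters (grey), with 1 mouse left out (blue) and without mice 11601 and 11708 (orange), all alternatives relative to the median of all genes tested. Every black interval includes 0; without mice 11601 and 11708 the values of Pnpla2, G0s2, Plin1 and Plin3 change sign.

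The perilipin genes lie on chromosomes 7 (*Plin1*, 79720218 to 79732903), 4 (*Plin2*, 86648386 to 86670060) and 17, all on the minus strand. On chromosome 17, *Plin4* (56100591 to 56109803) and *Plin5* (56111601 to 56117596) are 1797 bases apart and *Plin3* (56277476 to 56292873) follows 159879 bases further on. *Plin1*, the coat protein of adipocytes, was the most even of the 3 perilipins contrasted here among the control mice. Its normalised value was 398, 378, 406 and 357 in controls 10684, 11253, 11563 and 11560, against 322, 368, 541 and 276 in Ox1RΔSERT mice 11708, 11243, 11613 and 11601. Mouse 11613 lay above all controls, mice 11708 and 11601 below all of them, and the group means were nearly equal, at 385 ± 22.0 and 377 ± 116 (SD, n = 4 each). Between groups the log2 fold change was -0.030 ± 0.19 (SE; 95% interval -0.47 to 0.41; edgeR adjusted p = 0.953). It was 0.25 without mice 11708 and 11601 (edgeR adjusted p = 0.996) and -0.26 without mouse 11613 (edgeR adjusted p = 0.295).

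*Plin2* had normalised values of 716, 938, 1059 and 788 in controls 10684, 11253, 11563 and 11560, against 883, 908, 1270 and 769 in Ox1RΔSERT mice 11708, 11243, 11613 and 11601. The highest mouse was again 11613, and control mouse 10684 was the lowest of all 8. Mice 11708 and 11601, high in macrophage genes, lay within the control range. Between groups the log2 fold change was 0.13 ± 0.19 (SE; 95% interval -0.30 to 0.56; edgeR adjusted p = 0.753), with 3 of 4 Ox1RΔSERT mice above the control mean. It was 0.32 without mice 11708 and 11601 (edgeR adjusted p = 0.996) and -0.040 without mouse 11613 (edgeR adjusted p = 0.910). In TPM, *Plin2* was 348, 377, 492 and 363 in controls, against 544, 400, 706 and 497 in Ox1RΔSERT mice, in the same order. On that scale only control mouse 11563 exceeded an Ox1RΔSERT mouse, 11243, and the exact permutation p was 0.0571 (two-sided). All genes tested had a median of 0.23 in the limma-trend fit to log2(TPM + 1), and relative to it *Plin2* was at 0.20.

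*Plin5* followed neither of these genes. Its normalised value was 331 in control mouse 10684, against 177, 138 and 149 in its group mates 11253, 11563 and 11560, and it was 145, 207, 169 and 148 in Ox1RΔSERT mice 11708, 11243, 11613 and 11601. Mouse 10684, at 2.14 times the mean of the other controls, stood above all other mice, and the 4 Ox1RΔSERT mice overlapped with the remaining 3 controls. In TPM, *Plin5* was 140 in mouse 10684, and the Ox1RΔSERT mice, at 81.0 to 86.1, lay above the remaining 3 controls, at 58.2 to 67.8. Mouse 11613, the highest for *Plin1* and *Plin2*, was not high for *Plin5*. Its log2 fold change was -0.25 ± 0.28 (SE; 95% interval -0.87 to 0.38; edgeR adjusted p = 0.669), and it turned to 0.11 without mouse 10684 (edgeR adjusted p = 0.724) and was -0.077 without mice 11708 and 11601 (edgeR adjusted p = 0.996). *Plin5* was 1 of 2 genes of the 10 whose sign in edgeR changed when this control mouse was left out. The other was *Plin3*, whose product binds small and newly formed droplets: it was 141 in mouse 10684, 75.4 to 87.5 in the other controls and 75.7 to 102 in the Ox1RΔSERT mice. In TPM, *Plin3* was 56.6 in mouse 10684, and every Ox1RΔSERT mouse (at most 48.2) lay above the other controls (29.5 to 31.2). All genes tested had a median of 0.23 in the limma-trend fit to log2(TPM + 1). Relative to it, with every mouse kept, *Plin5* was at -0.11 and *Plin3* at 0.030. The edgeR log2 fold change of *Plin3* was -0.085 ± 0.21 (SE; edgeR adjusted p = 0.864) with mouse 10684, 0.17 (edgeR adjusted p = 0.486) without it and 0.061 (edgeR adjusted p = 0.996) without mice 11708 and 11601. *Plin4*, a perilipin of adipocytes, ranged from 552 to 691 in control mice and from 484 to 823 in Ox1RΔSERT mice, with a log2 fold change of 0.063 ± 0.18 (SE; edgeR adjusted p = 0.884), or 0.15 without mice 11708 and 11601 (edgeR adjusted p = 0.996). Without mouse 11613 the log2 fold change of *Plin4* turned to -0.088 (edgeR adjusted p = 0.785).

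**Figure D3:**
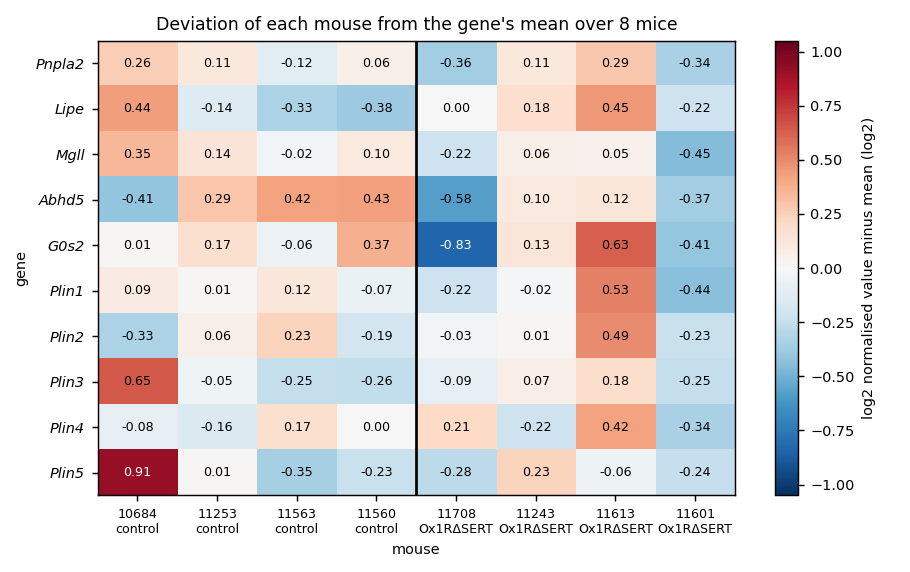
Log2 normalised value of each gene (rows) in each mouse (columns) minus the mean of that gene over the 8 mice; red is above and blue below the mean, and the black line parts control from Ox1RΔSERT mice. Control mouse 10684 is highest for Plin5 (0.91) and Plin3 (0.65) and low for Abhd5 (-0.41) and Plin2 (-0.33), mouse 11613 is above the mean for every gene but Plin5, and mice 11708 and 11601 are mostly below.

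Across mice, the 10 genes did not move as a block. Mouse 11613 was the highest for 6 of the 10 genes and among the top 2 for 7, and its median deviation from the gene means was 0.35 on the log2 scale, beside -0.020 for all genes tested. Mouse 11601 was among the lowest 2 mice for 7 genes and mouse 11708 for 6, with median deviations of -0.34 and -0.22. Control mouse 10684 was highest for 3 genes and in the lowest 2 for 2. The ratio of this mouse to the mean of the other controls was over 1.5 for *Lipe* (1.64), *Plin3* (1.78) and *Plin5* (2.14). By the root mean square difference of mean-centred log2 normalised values over the 8 mice, the member nearest to *Plin5* was *Plin3* (0.16), the member nearest to *Plin1* was *Pnpla2* (0.17) and the member nearest to *Plin2* was *Plin4* (0.19).

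Among 7351 other genes with a mean normalised value of at least 10, the nearest to *Plin1* were *Sgta* (0.073), *Aifm2* (0.078) and *Tomm40* (0.083), against a median difference of 0.29. The nearest to *Plin2* were *Maea* (0.091), *Foxj3* (0.10) and *Cog7* (0.11), against a median of 0.30. For *Plin5* they were *Hyal1* (0.078), *Nudt7* (0.088) and *Xrcc6* (0.12), against a median of 0.43. No gene appeared in more than 1 of these lists.

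Ratios within a library do not depend on scaling between libraries. The ratio of *Plin2* to *Plin1* TPM was 1.77, 2.19, 2.42 and 2.06 in controls 10684, 11253, 11563 and 11560, against 2.42, 2.27, 2.37 and 2.62 in Ox1RΔSERT mice 11708, 11243, 11613 and 11601. Transcripts of *Plin2* thus exceeded those of *Plin1* in every mouse, and 3 of the 4 controls lay below all Ox1RΔSERT mice. As log2(TPM + 1), the mean ratio was 1.07 ± 0.19 in control and 1.27 ± 0.087 in Ox1RΔSERT mice (SD, n = 4 each), a difference of 0.20 with an exact permutation p of 0.114 (two-sided; 0.457 after Benjamini-Hochberg adjustment over 4 ratios). The difference was 0.12 without mouse 10684 and 0.14 without mice 11708 and 11601, and rose to 0.27 without mouse 11563 (exact permutation p = 0.0571, unadjusted).

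The ratio of *Plin5* to *Plin1* TPM spread more widely, from 0.287 to 0.713 in control and from 0.271 to 0.473 in Ox1RΔSERT mice. Mouse 10684 held the highest ratio and mouse 11613 the lowest. The log2 ratio differed by -0.098 between the groups (exact permutation p = 0.800, adjusted 0.800), and by 0.16 in the other direction without mouse 10684.

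For the first lipase and its regulators, the ratio of *G0s2* to *Pnpla2* TPM was 0.372 to 0.553 in control and 0.322 to 0.558 in Ox1RΔSERT mice, with a log2 difference of -0.098 (exact permutation p = 0.629, adjusted 0.800). This difference turned to 0.042 without mouse 11708 and to 0.13 without mice 11708 and 11601, and was -0.22 without mouse 11613. The ratio of *Abhd5* to *Pnpla2* TPM was 0.0491 in control mouse 10684, 0.0884, 0.106 and 0.0931 in controls 11253, 11563 and 11560, and 0.0666, 0.0731, 0.0801 and 0.0734 in Ox1RΔSERT mice 11708, 11243, 11613 and 11601. The co-activator transcript was therefore far less abundant than the lipase transcript in every mouse, and mouse 10684 fell below the Ox1RΔSERT mice while the other 3 controls lay above them. The log2 ratio differed by -0.15 over all mice (exact permutation p = 0.629, adjusted 0.800), by -0.38 without mouse 10684 (exact permutation p = 0.0571, the smallest this two-sided test can give for 3 against 4 mice) and by -0.082 without mice 11708 and 11601. Without mouse 11563 the difference was -0.017 (exact permutation p = 1.00) and without mouse 11560 it was -0.079.

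**Figure D4:**
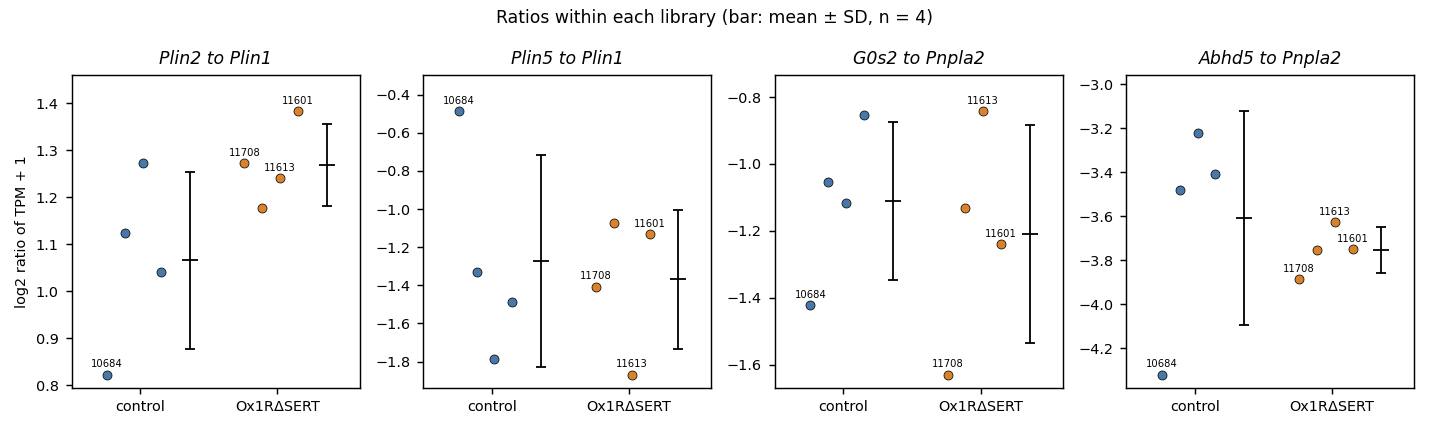
Log2 ratios of TPM + 1 within each library for the 4 gene pairs, in control (blue) and Ox1RΔSERT (orange) mice, with the mean and SD of each group (n = 4). The groups overlap in each panel, and control mouse 10684 lies at the edge of its group for all 4 ratios.

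Promoter windows from RefSeq (GRCm38.p6), found for all 10 genes (13 windows, since *Lipe*, *Mgll* and *Plin5* have 2 starts each), were searched on both strands in the 250 bases before each start. The hexamer AGGTCA on either strand, which nuclear receptors such as the PPARs bind as direct repeats, occurred in windows of *Abhd5*, *Plin2* and *Plin5*, and in 14.0% of all 32851 windows of this length. The E-box CACGTG was found in windows of *Lipe* and *Mgll* (6.02% of all windows), as was the forkhead motif GTAAACA (3.17%). The cyclic AMP response element TGACGTCA was found in 0 of the 13 windows (1.55% of all). The stretches upstream of the first annotated exon base are shown for the 3 contrasted perilipin genes, *Plin1* (chr7:79732904-79733026), *Plin2* (chr4:86670061-86670309) and *Plin5* (chr17:56117597-56117798), read 5′ to 3′ on the minus strand, with the hexamer on either strand in capitals. Binding was not measured, and letters in these windows say nothing of sites elsewhere.
*Plin1*: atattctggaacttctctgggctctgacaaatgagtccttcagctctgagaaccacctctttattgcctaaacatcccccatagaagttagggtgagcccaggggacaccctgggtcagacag
*Plin2*: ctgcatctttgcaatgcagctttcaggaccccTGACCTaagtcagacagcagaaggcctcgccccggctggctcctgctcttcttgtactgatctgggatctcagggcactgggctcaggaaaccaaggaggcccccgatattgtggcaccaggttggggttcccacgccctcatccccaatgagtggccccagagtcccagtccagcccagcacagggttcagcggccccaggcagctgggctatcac
*Plin5*: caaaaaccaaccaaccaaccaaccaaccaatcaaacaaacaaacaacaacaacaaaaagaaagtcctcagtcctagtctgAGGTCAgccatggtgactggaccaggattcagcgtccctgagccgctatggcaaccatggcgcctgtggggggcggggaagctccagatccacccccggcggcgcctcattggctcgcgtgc
*Plin2* carries the hexamer on the opposite strand, beginning 218 bases before its RefSeq start, and *Plin5* on its own strand, beginning 170 bases before its start, while the stretch of *Plin1* holds none of the motifs searched.

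The genes around lipolysis were followed in 5 lists. Of 25 further lipid droplet and glyceride hydrolysis genes, 23 were tested, 0 were called by edgeR and 1 by DESeq2. Of these 23 genes, 20 had a log2 fold change below 0, with a median of -0.20, and the groups did not overlap for 2, both lower, while over all genes tested 7188 of 14489 were below 0, and 2.81% were lower without overlap; DESeq2 called 1.75% of the genes it tested. Without mice 11708 and 11601 the median was 0.0053, beside -0.012 for all genes tested. *Hilpda*, which encodes another protein inhibitor of adipose triglyceride lipase, had normalised values of 4.63 to 6.12 in control mice and of 14.9, 5.66, 9.27 and 12.3 in Ox1RΔSERT mice 11708, 11243, 11613 and 11601. Mouse 11243 overlapped with the controls and the 2 mice with high macrophage genes were the highest. The log2 fold change of *Hilpda* was 1.01 ± 0.27 (SE; edgeR adjusted p = 0.316; DESeq2 adjusted p = 0.0359), with adjusted p from 0.0359 to 0.996 over all settings run, and it was 0.51 without those 2 mice.

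*Abhd15*, a relative of *Abhd5* with a role in the suppression of lipolysis by insulin, had normalised values of 25.5 to 37.1 in control and 13.9 to 25.2 in Ox1RΔSERT mice (log2 fold change -0.57 ± 0.21, SE; edgeR adjusted p = 0.316). *Pnpla8*, a phospholipase, ranged from 208 to 232 in control and from 155 to 207 in Ox1RΔSERT mice (log2 fold change -0.31 ± 0.12, SE; edgeR adjusted p = 0.316). Their groups did not overlap as normalised values, but did so in TPM, and the lowest mice were 11708 and 11601 for both. Without these mice the log2 fold changes were -0.25 and -0.14.

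Of 15 genes of the adrenergic and protein kinase A input, all tested, 0 were called by either tool and the groups overlapped for each, beside 1.75% called by DESeq2 among the genes it tested and 5.5% without overlap among all genes tested (list median log2 fold change -0.089; 0.028 without mice 11708 and 11601). The receptor genes *Adrb1* and *Adrb3* had log2 fold changes of -0.089 and 0.33, with edgeR adjusted p of 0.914 and 0.585. The lowest unadjusted p belonged to *Adcy3*, an adenylyl cyclase gene, with normalised values of 151, 286, 423 and 466 in controls 10684, 11253, 11563 and 11560, against 129, 183, 225 and 112 in Ox1RΔSERT mice 11708, 11243, 11613 and 11601. Control mouse 10684 was the only control within the Ox1RΔSERT range on this scale. In TPM, control mouse 11253, at 62.6, also lay within it, below Ox1RΔSERT mouse 11613 at 63.4. The log2 fold change of *Adcy3* was -1.03 ± 0.36 (SE; edgeR adjusted p = 0.316; DESeq2 adjusted p = 0.0857) and -0.70 without mice 11708 and 11601. *Gnas*, which encodes the stimulatory G protein subunit, and *Pde4d*, a phosphodiesterase gene, had log2 fold changes of -0.35 and -0.45 (edgeR adjusted p = 0.352 and 0.419), and of -0.18 and -0.11 without mice 11708 and 11601.

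Of 7 antilipolytic Gi-coupled receptor genes, 6 were tested, 0 were called by either tool (edgeR called 0% of all genes tested and DESeq2 1.75% of its own), and the median log2 fold change was 0.14, or 0.057 without mice 11708 and 11601. *Hcar1*, the lactate receptor gene, and *Hcar2*, the receptor gene for ketone bodies and niacin, were at normalised values of at most 2.36 and 2.04 in any mouse. Their log2 fold changes were 0.91 ± 0.53 and 0.55 ± 0.49 (SE; edgeR adjusted p = 0.418 and 0.598). *Adora1*, the adenosine A1 receptor gene, was 161 in control mouse 10684, 28.9 to 41.4 in the other controls and 43.0 to 63.9 in Ox1RΔSERT mice. Mouse 10684 was at 4.36 times the mean of the other controls, and was also over 1.5 times that mean for *Lipe*, *Plin3* and *Plin5*.

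Of 11 genes of transcription factors known to act on these genes, 0 were called by edgeR and 1 by DESeq2, which called 1.75% of the genes it tested (list median log2 fold change -0.079; 0.071 without mice 11708 and 11601). That one was *Cebpd*, a factor of adipocyte differentiation, with normalised values of 8.39 to 11.5 in control and 16.0 to 24.8 in Ox1RΔSERT mice and no overlap on either scale, as for 2.69% of all genes tested that were higher without overlap as normalised values and 5.59% in TPM. Its log2 fold change was 0.99 ± 0.16 (SE; edgeR adjusted p = 0.316; DESeq2 adjusted p = 0.00072; 0.00072 to 0.996 over all settings run), and 0.96 without mice 11708 and 11601. *Pparg*, the main factor of adipocyte genes, had a log2 fold change of -0.033 (95% interval -0.33 to 0.27; edgeR adjusted p = 0.922). *Irf4*, a factor that drives lipase genes in fasting, and *Esrra*, a nuclear receptor of mitochondrial genes, had log2 fold changes of -0.44 and -0.25 (edgeR adjusted p = 0.316 and 0.477), and of -0.33 and 0.037 without mice 11708 and 11601.

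Of 14 PPAR target genes outside the 10, all tested, 0 were called by edgeR and 1 by DESeq2, and the groups did not overlap for 1 higher and 2 lower genes, beside 2.69% and 2.81% of all genes tested; DESeq2 called 1.75% of the genes it tested (list median log2 fold change -0.18; -0.025 without mice 11708 and 11601). *Angptl4*, which encodes an inhibitor of lipoprotein lipase, had normalised values of 83.1, 98.6, 62.9 and 53.0 in controls 10684, 11253, 11563 and 11560, against 162, 123, 150 and 170 in Ox1RΔSERT mice 11708, 11243, 11613 and 11601. Every Ox1RΔSERT mouse exceeded every control mouse, also in TPM. The log2 fold change of *Angptl4* was 1.02 ± 0.20 (SE; edgeR adjusted p = 0.316; DESeq2 adjusted p = 0.00188; 0.00188 to 0.996 over all settings run), and 0.88 without mice 11708 and 11601. *Fabp3*, a fatty acid binding protein gene, and *Acadm*, a gene of fatty acid oxidation, were lower without overlap as normalised values, at log2 fold changes of -0.48 and -0.35 (edgeR adjusted p = 0.316 and 0.324), but overlapped in TPM, and without mice 11708 and 11601 the log2 fold changes were -0.22 and -0.19. The PPAR target genes outside the 10 thus held values on both sides, and *Plin2*, *Plin5* and *Pnpla2*, also PPAR targets by general knowledge, overlapped between the groups.

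**Figure D5:**
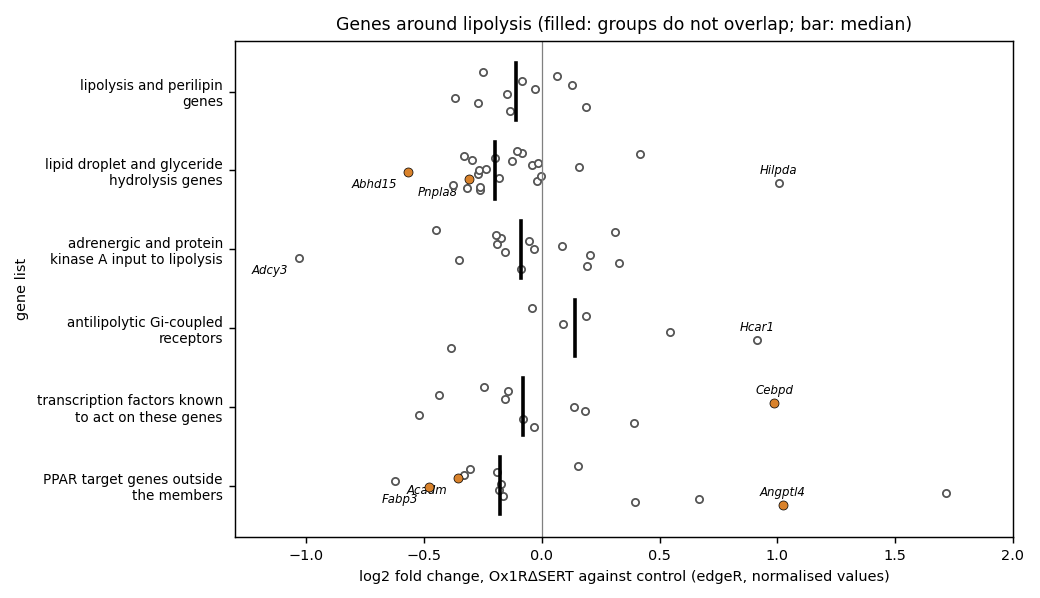
Log2 fold change (edgeR, normalised values) of the 10 lipolysis and perilipin genes and of the tested genes of 5 related lists; each circle is a gene, filled where the normalised values of the groups do not overlap, and the bar is the median of the list. The 10 genes lie between -0.37 and 0.19, while Cebpd and Angptl4 lie near 1; Hilpda (1.01), Hcar1 (0.91) and Adcy3 (-1.03) lie about as far out with overlapping groups, and on the TPM scale the filled genes Abhd15, Pnpla8, Fabp3 and Acadm overlap.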

How the data were processed

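Polyadenylated RNA of BAT was sequenced from stranded libraries. The authors deposited estimated counts per gene from Salmon (0.14.1 per the submitters' processing notes, which also name STAR, DESeq2 1.26.0 and GRCm38.p6), not normalised, and TPM values, which the authors scaled for transcript length. The annotation release is not given in the sources used here.

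Estimated counts were rounded and all genes were fitted with edgeR 4.0.16 in R 4.3.3 (filterByExpr, TMM, quasi-likelihood F test, two-sided, Benjamini-Hochberg adjustment over 14489 genes, threshold 0.05), without covariates. The fit was tested on simulated data. Alternatives used DESeq2 1.42.0 and limma 3.58.1. Ratios were taken as log2(TPM + 1) and tested by exact permutation with SciPy 1.17.1. Symbols and positions came from GENCODE M21 (44118 of 44674 identifiers matched), promoters from RefSeq.

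Named genes were the 10 members, the 3 genes with the lowest unadjusted p and any without overlap in each related list, the most abundant gene of each marker list, the 3 nearest profiles of *Plin1*, *Plin2* and *Plin5*, and *Hcrtr1*; *Adrb1*, *Adrb3* and *Pparg* were added as key genes of their lists after values were seen, as were *Pnpla3*, *Cebpa*, *Dio2*, *Ppargc1a* and *Pdk4* for the values of mouse 10684. Some genes counted in the lists are not reported singly here. Members and lists were chosen with earlier results of these data known. No 2 libraries of a group agreed within sampling noise (mean chi-square of at least 16.6 per gene). Exons of *Lipe*, *Mgll*, *Abhd5* and *Plin4* overlap genes on the opposite strand by at most 16.0% of their bases; those genes reached at most 4.30 TPM.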

Additional observations from a re-analysis of the deposited data

Results flagged for a closer look

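In 48 sets of 4 mice (the 10 genes in TPM and as normalised values and the 4 ratios, in each group), the mouse at either end was compared with the rest of its group, and 3 sets held a mouse far from the others, all control mouse 10684 and all in TPM. *Lipe* was 327 TPM in this mouse and 184 to 200 TPM in the other 3 controls. *Plin3* was 56.6 TPM against 29.5 to 31.2 TPM, and *Plin5* was 140 TPM against 58.2 to 67.8 TPM. Chance gives such a distance in about 1 of 20 sets that are independent. The 48 sets are not independent, as they hold the same 10 genes on both scales and ratios of those genes. The count of 3 therefore does not say whether chance gave it. The 3 genes share the same mouse. As normalised values the gaps of these genes did not pass the limit used. The cause was not tested.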

How the results depend on the processing

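Values of genes in this section are log2 fold changes relative to the median of all genes tested. Of 288 results recomputed under the alternatives, 265 kept their direction and their side of the threshold, 22 changed sign and 1 count moved. The genes called numbered 0 in edgeR and 265 with DESeq2; the called members numbered 0 in every setting. *Lipe*, *Mgll* and *Abhd5* kept their sign in all 20 alternatives. Without mice 11601 and 11708 the sign changed for *Pnpla2* (0.13), *G0s2* (0.28), *Plin1* (0.26) and *Plin3* (0.072), and the log2 ratio of *G0s2* to *Pnpla2* became 0.13. Without mice 11253 and 11708, a setting chosen after seeing the data because these 2 libraries were highest in skeletal muscle genes, it changed for *G0s2* (0.060), *Plin1* (0.033) and *Plin4* (-0.036), and the ratio of *G0s2* to *Pnpla2* became 0.061. *Plin3* also changed sign in limma-trend on log2(TPM + 1) (0.030), and *Plin3* (0.13) and *Plin5* (0.059) did so with voom quality weights.

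Leaving out 1 mouse at a time gave values from -0.27 to -0.042 for *Pnpla2*, 0.056 to 0.38 for *Lipe*, -0.34 to -0.18 for *Mgll*, -0.55 to -0.25 for *Abhd5*, -0.45 to 0.047 for *G0s2*, -0.26 to 0.093 for *Plin1*, -0.040 to 0.23 for *Plin2*, -0.19 to 0.15 for *Plin3*, -0.089 to 0.17 for *Plin4* and -0.39 to 0.093 for *Plin5*. The ratio of *Plin5* to *Plin1* ran from -0.27 to 0.16 that of *G0s2* to *Pnpla2* from -0.22 to 0.042, that of *Abhd5* to *Pnpla2* from -0.38 to -0.017 and that of *Plin2* to *Plin1* from 0.12 to 0.27. Each of these shifts came with fewer mice or another weighting or scale; beyond that the cause was not tested. With 4 mice a group, the 95% intervals of the 10 genes reached from -0.88 to 0.68.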

Other observations

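These values were picked after they had been seen and carry no test. The ratio of *Lipe* to *Pnpla2* TPM was 0.329, 0.256, 0.256 and 0.218 in controls 10684, 11253, 11563 and 11560, against 0.376, 0.315, 0.337 and 0.323 in Ox1RΔSERT mice 11708, 11243, 11613 and 11601. Apart from mouse 10684, every control mouse lay below every Ox1RΔSERT mouse.

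Control mouse 10684 differed from the other controls in more than the perilipin genes. Relative to their mean normalised value, *Pnpla3*, a lipase-related gene of lipogenic tissue, stood at 4.61 and *Cebpa*, a factor of adipocyte differentiation, at 2.33, while *Dio2*, the deiodinase of brown adipocytes, stood at 0.206, the co-activator gene *Ppargc1a* at 0.317 and *Pdk4* at 0.522. *Ucp1* stood at 0.840. As normalised values, the Ox1RΔSERT mice also lay below the other controls for *Dio2* (198 to 534 against 818 to 1126). The same held for *Ppargc1a* (45.8 to 93.0 against 103 to 112). For *Cebpa* they lay above the other controls (111 to 158 against 83.8 to 90.1). For *Pnpla3*, *Pdk4* and *Ucp1* the Ox1RΔSERT mice overlapped with the other controls. In TPM, *Ppargc1a* overlapped too, at 19.4 in Ox1RΔSERT mouse 11613 and 15.1 to 17.4 in the other controls. *Pnpla3* did not overlap with them in TPM (13.2 to 31.5 against 8.38 to 9.79). Of 7361 genes with a mean normalised value of at least 10, 144 were over 2 times and 121 under 0.5 times the mean of the other controls in mouse 10684, compared with 3 to 76 and 39 to 93 in the other control mice set against their own group in the same way. These genes made up 3.60% of the 7361, against 1.07% to 1.56% in the other controls, so that mouse 10684 stood apart among controls. The share was 3.82%, 3.75% and 3.60% in Ox1RΔSERT mice 11243, 11613 and 11601 set against their own group, and 1.59% in mouse 11708. Each mouse was compared with its own group only, so these shares do not rank mouse 10684 among all 8 mice.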
